A study of Mus musculus with 23 samples.

Results

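Splicing factors of the SR protein, hnRNP, Mbnl, Srrm, Tra2 and Quaking families were followed across 3 populations of mouse hippocampal neurons. All protein-coding genes with a symbol of these families were taken, which gave 41 of the 45706 gene IDs in the count table: 20 hnRNP genes, 11 SR protein genes, 4 Srrm genes, 3 Mbnl genes, 2 Tra2 genes and Qk. The rule uses gene symbols alone. Of the 41 genes, 40 passed the filter on low counts and were tested among 18823 genes, and Mbnl3 did not pass it. Polyadenylated RNA of the hippocampus had been sequenced in 23 libraries from populations named CamK and Grik, both described as excitatory pyramidal cells, and SST, described as somatostatin-positive interneurons. Each population was sampled from wild-type animals (WT) and from animals with a conditional deletion (cKO) of Slm2, where Slm2 is the STAR-family splicing regulator encoded by Khdrbs3. There were 4 libraries of each group except CamK cKO, which had 3. How the cells were isolated, which Cre lines were used, whether WT mice carried floxed alleles or Cre, and the age and sex of the mice are not stated in the labels. Nothing in the labels says whether the libraries of a group came from separate animals, so p-values measure the spread between these libraries.

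SR proteins carry arginine-serine repeats and mostly help the spliceosome to recognise exons, binding to enhancer sequences within them. The hnRNPs coat nascent transcripts and often act against SR proteins, so that the balance of the families at an exon influences whether it is included. Mbnl, Quaking and the neural Srrm proteins are regulators whose levels depend on the tissue, and in neurons Srrm4 is known for the inclusion of microexons. Many of these genes are also regulated through their own splicing, with transcripts that are degraded by nonsense-mediated decay, and a count of reads per gene does not separate such transcripts from the productive ones.

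Gene totals were 87612006 to 112993538 reads per library, with a median of 91378465, and 20816 to 22713 genes had reads. The populations carried the markers of their labels: Wfs1, a marker of field CA1, had a mean of 356 CPM (counts per 1000000 gene reads) in CamK WT against 24.7 CPM in Grik WT, the kainate receptor gene Grik4, a marker of field CA3, had 30.3 and 132 CPM, and Sst ranged from 159 to 1720 CPM between SST WT libraries against means of 5.59 and 8.13 CPM. Reads of the targeted gene did not follow the label everywhere. Khdrbs3 averaged 278 CPM in CamK cKO against 373 CPM in WT and 93.8 CPM in SST cKO against 130 CPM in WT, but 414 CPM in Grik cKO against 336 CPM in WT. "cKO" therefore means the libraries labelled cKO, and which exons were deleted is not stated in the labels. Of 20 markers of glia and vessel cells, 15 were lower and 0 higher in CamK WT than in Grik WT, 17 were lower and 0 higher in CamK WT than in SST WT, and 4 were higher and 4 lower in Grik WT than in SST WT. Their summed level was 156 to 247 CPM in CamK WT, 245 to 321 in CamK cKO, 751 to 1005 in Grik WT, 838 to 1162 in Grik cKO, 376 to 813 in SST WT and 315 to 1220 in SST cKO, and 0 of the 20 were at 0 in any group. In bulk RNA, fewer cells of a type and less RNA per cell cannot be told apart.

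Mbnl2, Srsf9 and Qk had the largest fold differences between WT populations, so the 250 bases before their annotated starts are shown, read 5′ to 3′ on the gene's strand from RefSeq (GRCm38.p6). In GENCODE M21 (GRCm38) the genes lie at chr14:120275669-120431697, chr5:115327177-115333080 and chr17:10202601-10319854, and the Qk window falls within the GENCODE gene, whose start lies farther upstream. Capitals mark the GC box (GGGCGG or its reverse complement CCGCCC) and the CCAAT box (CCAAT or ATTGG). The Mbnl2 window is chr14:120275419-120275668 on the plus strand, the Srsf9 window is chr5:115326927-115327176 on the plus strand, and the Qk window is chr17:10319362-10319611 on the minus strand.
Mbnl2: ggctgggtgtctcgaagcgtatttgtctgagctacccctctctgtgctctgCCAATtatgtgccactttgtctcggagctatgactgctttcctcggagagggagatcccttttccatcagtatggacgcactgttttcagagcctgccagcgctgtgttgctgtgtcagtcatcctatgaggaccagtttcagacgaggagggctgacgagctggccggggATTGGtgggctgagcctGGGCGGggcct
Srsf9: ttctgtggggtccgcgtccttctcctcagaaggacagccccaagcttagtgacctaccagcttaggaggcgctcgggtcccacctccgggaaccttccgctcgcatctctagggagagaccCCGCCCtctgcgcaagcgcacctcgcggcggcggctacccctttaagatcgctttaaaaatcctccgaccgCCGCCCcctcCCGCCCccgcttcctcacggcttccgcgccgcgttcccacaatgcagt
Qk: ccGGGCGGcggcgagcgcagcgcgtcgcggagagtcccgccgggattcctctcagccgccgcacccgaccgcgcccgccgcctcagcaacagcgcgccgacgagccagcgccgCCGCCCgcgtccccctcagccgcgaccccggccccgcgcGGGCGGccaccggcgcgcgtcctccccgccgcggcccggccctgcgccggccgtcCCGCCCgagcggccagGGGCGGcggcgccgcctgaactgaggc
The Qk window had 84.8% G and C and 5 GC boxes with 0 CCAAT boxes, the Srsf9 window had 65.2% and 3 GC boxes, and the Mbnl2 window had 57.2%, 1 GC box and 2 CCAAT boxes. Windows were found for 39 members, all but Hnrnpll and Hnrnpul2. A GC box was in 28 of the 39 (71.8%), against 32.9% of the windows of 27018 genes, and a CCAAT box was in 20 (51.3%) against 34.5%. The sequence TATAAA, read on the gene's strand alone, was in 4 (10.3%) against 8.12%. The median share of G and C was 62% against 52%, and the median ratio of observed to expected CpG was 0.975 against 0.378. Mbnl1 lay at the other end of the list, with 38% G and C, a CpG ratio of 0.120 and 0 GC boxes. The 27018 genes were not matched to the members in gene type or level, so these differences are not shown to be particular to splicing factors. The boxes are matches to letters and do not show binding.

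Together the 41 genes took 5797 to 6365 CPM in the CamK WT libraries, 5584 to 6589 CPM in those of Grik and 5274 to 5951 CPM in those of SST, so the ranges of the 3 populations overlapped. In the CamK, Grik and SST WT libraries the SR protein genes summed to 913 ± 53.0, 892 ± 68.2 and 867 ± 51.1 CPM (SD, n = 4 each). The hnRNP genes summed to 4337 ± 178, 4244 ± 302 and 3784 ± 234 CPM in the same order. Per kilobase of exon, hnRNP genes were the most abundant members in each WT population. In CamK WT the order was Hnrnpk (87.6 CPM per kilobase), which binds C-rich RNA, then Hnrnpa2b1 (80.1), Hnrnpab (77.5), the splicing repressor gene Hnrnpa1 (72.9) and Hnrnpc (72.7), which binds runs of U. Grik WT was led by Hnrnpc (92.1) and Hnrnpk (91.0), and SST WT by Hnrnpk (89.2) and Hnrnpa1 (83.0). Among SR genes the highest per kilobase in CamK WT were Srsf5 (37.4), Srsf2 (28.3), Srsf7 (21.9) and Srsf1 (21.5), the founding member of the family. Genes on the opposite strand (Mettl23 and Mfsd11) share 25.3% of the exon bases of Srsf2, so its count and its place in this order are uncertain. Mbnl3, the member of the Mbnl family that was barely detected, was at or below 0.0921 CPM in all 23 libraries.

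Between CamK WT and Grik WT, the libraries of the 2 pyramidal populations, 9 of 40 members passed an edgeR adjusted p of 0.05 (22.5%), against 42.0% of all genes tested. Of these, 6 were higher in CamK WT, against 20.9% of all genes, and 3 were lower, against 21.1%. Between CamK WT and SST WT 21 members passed (52.5%), against 60.1% of all genes, with 16 higher in CamK WT (29.5% of all genes) and 5 lower (30.5%). Grik WT and SST WT differed in 16 members (40%), against 57.3% of all genes, with 12 higher in Grik WT (28.1%) and 4 lower (29.2%). Differences were small. The median absolute log2 fold change of the members was 0.12, 0.21 and 0.15 in these comparisons, against 0.34, 0.54 and 0.51 over all genes. Genes at the members' levels, with a mean of at least 27.3 CPM, had medians of 0.22, 0.36 and 0.34, and 50.95, 69.25 and 66.84% of them passed. A difference above 2-fold was found for 0, 1 and 0 members, the 1 being Qk, against 19.5, 31.1 and 29.8% of all genes. With the mean log2 level of the 20 non-neuronal markers as a covariate, 4 members passed between CamK WT and Grik WT (2 higher, 2 lower), or 10% against 21.7% of all genes. In the same fit 12 passed between CamK WT and SST WT (8 higher, 4 lower), or 30% against 39.1% of all genes. Between Grik WT and SST WT 17 passed (42.5%), against 57.8% of all genes. The covariate thus lowered the counts of both CamK comparisons, among all genes too, and not that of Grik and SST. Its values were -2.22 to -1.10 in CamK WT, 0.05 to 0.71 in Grik WT and 0.22 to 0.96 in SST WT. CamK WT did not overlap the others, so in its comparisons covariate and population cannot be told apart. A call lost there with the covariate therefore does not show that a difference is absent. The part of these cells in the differences was not tested.

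**Figure D1:**
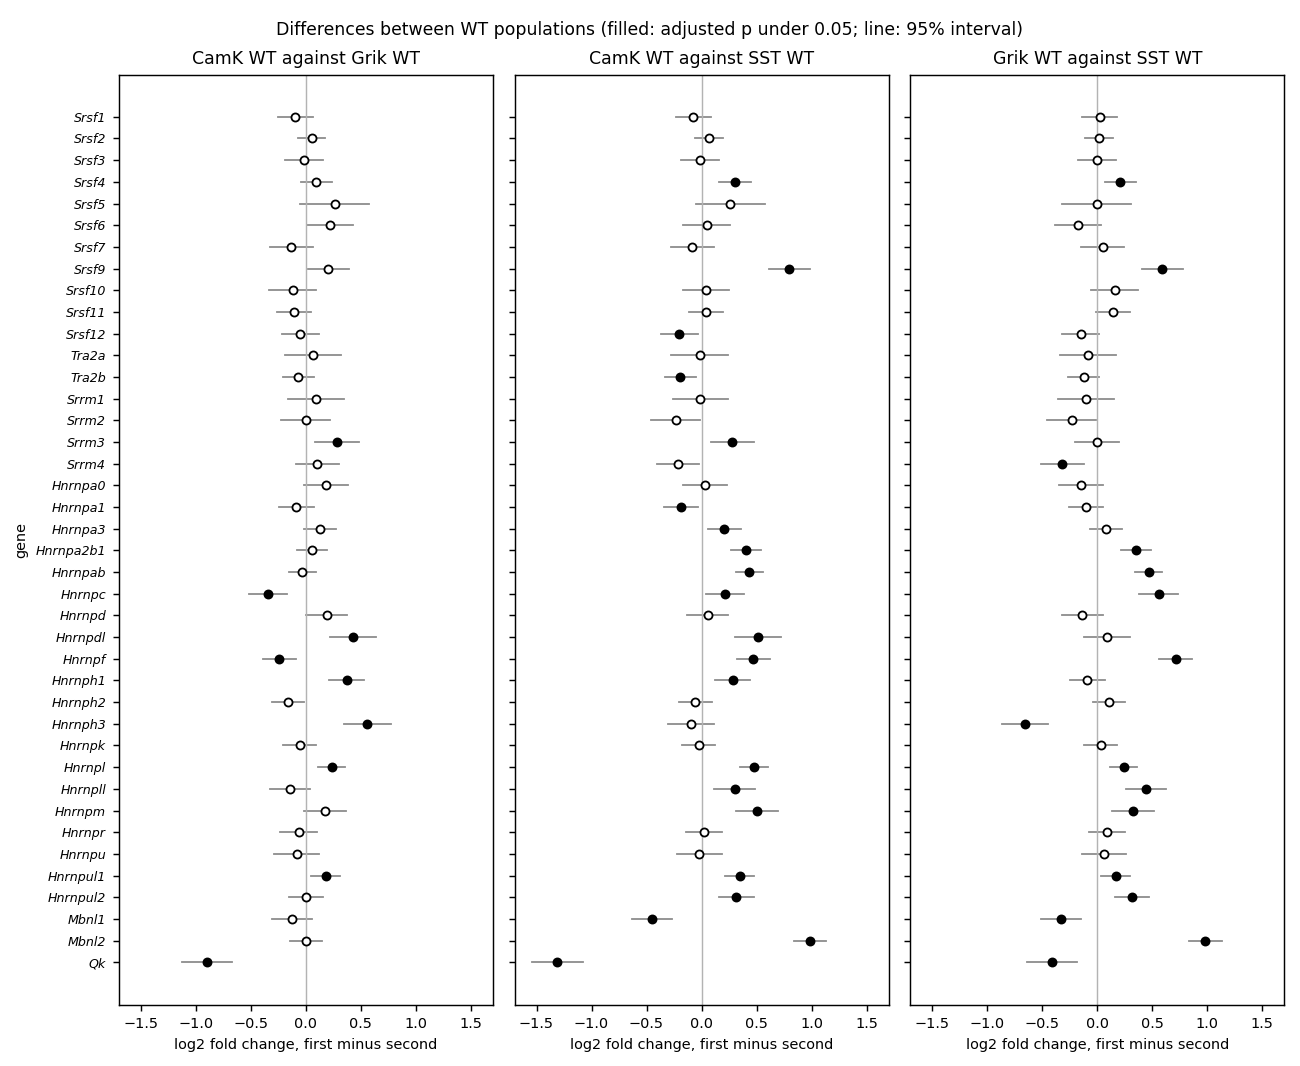
Log2 fold change of the 40 tested members between WT populations, with 95% intervals. Filled points passed an edgeR adjusted p of 0.05, which 9, 21 and 16 members did. Mbnl2, Srsf9 and Qk lay farthest from 0 between CamK WT and SST WT.

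Of 11 SR protein genes tested, 0 passed between CamK WT and Grik WT, where the lowest edgeR adjusted p was that of Srsf9 (0.0670). Against SST WT, 2 were higher and 1 lower in CamK WT and 2 were higher and 0 lower in Grik WT. Over all genes 42.0, 60.1 and 57.3% passed in these comparisons, and 50.95, 69.25 and 66.84% at the members' levels. Srsf1, Srsf2, Srsf3, Srsf5, Srsf6, Srsf7, Srsf10 and Srsf11 passed in none of the 3 comparisons. Between CamK WT and Grik WT, Srsf6 passed in limma-voom (log2 0.28, adjusted p 0.0290), and edgeR called it without CamK WT replicate 4 or 5 or Grik WT replicate 3 (0.0364 to 0.0476) and Srsf9 without CamK WT replicate 2 or 3 (0.0420 and 0.0378). Srsf5 passed between CamK WT and SST WT without CamK WT replicate 2 or SST WT replicate 3 (0.0417 and 0.0248 in edgeR). Between Grik WT and SST WT, Srsf11 passed in limma-voom (0.0275), with the replicate block (0.0263) and without Grik WT replicate 6 (0.0404). Srsf12 passed as lower in Grik WT there with the block (log2 -0.25, adjusted p 0.0259 in edgeR) and with the non-neuronal covariate (-0.18, 0.0467). Srsf3, which also links splicing to mRNA export, averaged 145.5 ± 10.7, 147 ± 18.7 and 147 ± 18.8 CPM in the CamK, Grik and SST WT libraries (SD, n = 4 each). Its 95% interval between CamK WT and SST WT was -0.19 to 0.15 on the log2 scale.

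Srsf9, the closest relative of Srsf1, was the SR gene with the largest difference. Its levels in CamK WT replicates 2, 3, 4 and 5 were 31.8, 31.5, 36.6 and 38.1 CPM. Grik WT replicates 3, 4, 5 and 6 had 31.6, 30.1, 30.2 and 27.8 CPM, and SST WT replicates 1, 2, 3 and 5 had 19.4, 20.8, 19.5 and 19.7 CPM. Every pyramidal library was above every SST library, while CamK and Grik overlapped. Srsf9 was 1.74-fold higher in CamK WT than in SST WT (log2 0.80, SE 0.09, adjusted p 3.491e-08 in edgeR). In Grik WT it was 1.51-fold higher than in SST WT (log2 0.59, SE 0.09, adjusted p 3.799e-06 in edgeR). The cKO libraries, which share no sample with the WT ones, gave log2 differences of 0.44 and 0.46, again without overlap (adjusted p 3.853e-04 and 9.043e-05 in edgeR).

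The other SR genes that passed moved by less. Srsf4 was higher in CamK WT than in SST WT by 0.31 (log2, SE 0.07) and in Grik WT by 0.21 (SE 0.07), with edgeR adjusted p of 4.942e-04 and 0.0127, and the Grik and SST libraries overlapped. The first call was lost with the non-neuronal covariate (log2 0.25, adjusted p 0.131), and the second without Grik WT replicate 5 (0.0624), without SST WT replicate 2 (0.0530) or with these groups fitted alone (0.0505). Srsf4 shares 43% of its exon bases with Gm12992 on the opposite strand, and the strand setting of the counts is not given, so its count is uncertain. Srsf12, a relative of the splicing repressor Srsf10, was lower in CamK WT than in SST WT by a log2 difference of -0.20 (SE 0.08, adjusted p 0.0336 in edgeR). Its CamK WT libraries had 23.3 to 28.1 CPM and its SST WT libraries 26.9 to 32.2 CPM, so the groups overlapped. The call was lost without CamK WT replicate 2 or 3 or SST WT replicate 3 or 5 (adjusted p 0.0804 to 0.1275 in edgeR), with no filter on low counts (0.0704) and with these groups fitted alone (0.0846). The cKO libraries did not overlap for Srsf12, at 19.2 to 25.1 CPM in CamK and 29.9 to 31.7 CPM in SST.

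Tra2b, which binds GAA-rich exonic enhancers, was slightly lower in CamK WT than in SST WT. CamK WT replicates 2, 3, 4 and 5 had 64.2, 68.5, 70.4 and 67.0 CPM and SST WT replicates 1, 2, 3 and 5 had 74.2, 78.6, 73.2 and 82.4 CPM. All CamK libraries lay below all SST libraries. The log2 fold change was -0.19 (SE 0.07, adjusted p 0.0195 in edgeR). The call was lost without CamK WT replicate 2 (adjusted p 0.0676) or SST WT replicate 5 (0.0671), the value was -0.33 with the non-neuronal covariate, and the cKO libraries did not pass. Between Grik WT and SST WT Tra2b did not pass (log2 -0.12, adjusted p 0.129 in edgeR). It was called there in limma-voom (log2 -0.15, adjusted p 0.0333) and in edgeR with the replicate block (-0.195, 0.0326). Its paralog Tra2a passed in none of the WT comparisons.

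Among the Srrm genes, Srrm1 and the nuclear speckle scaffold gene Srrm2 did not pass between WT populations. Srrm2 passed between CamK WT and SST WT with the replicate block (log2 -0.27, adjusted p 0.0472 in edgeR) and without CamK WT replicate 2 or 3 or SST WT replicate 1 (0.0230 to 0.0467), and between Grik WT and SST WT without Grik WT replicate 4 (0.0298) or SST WT replicate 1 (0.0244). Srrm3 and Srrm4, whose proteins promote microexons in neurons, each passed in some comparisons. Srrm3 had 52.9, 57.2, 55.5 and 54.6 CPM in CamK WT replicates 2, 3, 4 and 5 and 41.4, 48.4, 47.1 and 44.2 CPM in Grik WT replicates 3, 4, 5 and 6. All CamK libraries were above all Grik libraries, with a log2 difference of 0.28 (SE 0.10, adjusted p 0.0213 in edgeR). That call was lost without CamK WT replicate 3 (adjusted p 0.0584), Grik WT replicate 3 (0.0711) or Grik WT replicate 6 (0.0510), and with the non-neuronal covariate (log2 0.19, adjusted p 0.477). In SST WT, Srrm3 ranged from 39.1 to 58.3 CPM, with its highest library above all CamK libraries, and it was lower than in CamK WT (log2 0.28 for CamK minus SST, adjusted p 0.0146 in edgeR), a call lost without SST WT replicate 2 (0.0732) or 5 (0.0586) and with the covariate (0.468). Srrm4 was lower in Grik WT, at 47.0 ± 2.24 CPM (SD, n = 4), than in SST WT, at 58.6 ± 8.08, a log2 difference of -0.32 (SE 0.09, adjusted p 0.0055 in edgeR) with overlapping libraries. Between CamK WT and SST WT Srrm4 did not pass (log2 -0.21, adjusted p 0.0534 in edgeR). It was called there in DESeq2 (0.0479), in limma-voom (0.0256) and in edgeR with RLE scaling (0.0481). The edgeR fits without CamK WT replicate 2 (0.0425) or SST WT replicate 5 (0.0037) also called it. The cKO libraries of Grik and SST also passed for Srrm4 (log2 -0.24, adjusted p 0.0312 in edgeR), and those of CamK and Grik did not pass for Srrm3. Those of CamK and SST did not pass for Srrm3 either (log2 0.21, adjusted p 0.0884 in edgeR), though they did without CamK cKO replicate 6 (0.0348). The Srrm4 call in cKO was lost without any 1 of the Grik cKO libraries or SST cKO replicate 4 or 5 (adjusted p 0.0563 to 0.148 in edgeR) and with these groups fitted alone (0.0510).

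The hnRNP genes made up 20 of the 40 tested members. Of these, 5 were higher and 2 lower in CamK WT than in Grik WT. Against SST WT, 12 were higher and 1 lower in CamK WT, and 9 were higher and 1 lower in Grik WT. The 7, 13 and 10 genes that passed compare with 42.0, 60.1 and 57.3% of all genes. The median log2 fold change of the 20 hnRNP genes, called or not, was 0.03, 0.25 and 0.10 in the 3 comparisons, against 0.01, -0.02 and -0.03 over all genes. Hnrnpa0, Hnrnpd, Hnrnph2, Hnrnpk, Hnrnpr and Hnrnpu passed in none of them. Some of these were called in single alternatives, Hnrnpa0 between CamK WT and Grik WT with the block (adjusted p 0.0415 in edgeR), Hnrnpd there in limma-voom (0.0418) and without Grik WT replicate 3 (0.0282), and Hnrnph2 without Grik WT replicate 5 (0.0328). Hnrnpd also passed between Grik WT and SST WT without SST WT replicate 1 (0.0375).

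Hnrnpf and Hnrnpc were highest in Grik, intermediate in CamK and lowest in SST. Hnrnpf, which binds G-tracts, had 39.6, 38.9, 36.8 and 32.9 CPM in CamK WT replicates 2, 3, 4 and 5. Grik WT replicates 3, 4, 5 and 6 had 46.1, 45.9, 41.5 and 41.5 CPM, and SST WT replicates 1, 2, 3 and 5 had 29.5, 25.9, 25.0 and 26.5 CPM. No 2 of the WT populations overlapped. Hnrnpf was 1.64-fold higher in Grik WT than in SST WT (log2 0.71, SE 0.07, adjusted p 7.300e-09 in edgeR) and 1.38-fold higher in CamK WT (log2 0.47, SE 0.07, adjusted p 5.101e-06). CamK WT was below Grik WT by a log2 difference of -0.24 (SE 0.07, adjusted p 0.0097 in edgeR), a difference that did not pass in the cKO libraries. Predicted genes on the opposite strand share 26.5% of the exon bases of Hnrnpf, so its count is uncertain.

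Hnrnpc had 347, 339, 293 and 278 CPM in CamK WT replicates 2, 3, 4 and 5 and 436, 415, 352 and 389 CPM in Grik WT replicates 3, 4, 5 and 6. SST WT replicates 1, 2, 3 and 5 had 257, 257, 264 and 306 CPM. Grik was above both other populations without overlap, while the highest SST library lay within the CamK range. The log2 fold change was 0.56 for Grik WT minus SST WT (SE 0.08, adjusted p 4.020e-06 in edgeR), -0.34 for CamK WT minus Grik WT (SE 0.08, adjusted p 0.0020) and 0.21 for CamK WT minus SST WT (SE 0.08, adjusted p 0.0322). With the non-neuronal covariate the CamK and Grik difference was -0.28 and did not pass (adjusted p 0.189). The CamK and SST call was lost with the covariate (0.157), the replicate block (0.0784) or these groups fitted alone (0.0524), and without CamK WT replicate 2 or 3 or SST WT replicate 1, 2 or 3 (0.0708 to 0.123). In the cKO libraries all 3 differences passed, at 0.61, -0.30 and 0.31 (adjusted p 9.590e-07, 0.0118 and 0.0055 in edgeR). The second was lost with the covariate (0.181), the block (0.0872), or without CamK cKO replicate 6 (0.0929) or Grik cKO replicate 4 (0.0533), and the third without CamK cKO replicate 5 (0.0545).

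Hnrnph3, a relative of Hnrnpf, was lowest in Grik WT. It had 48.3, 50.7, 48.9 and 38.5 CPM in CamK WT replicates 2, 3, 4 and 5, 33.4, 31.5, 28.6 and 32.7 CPM in Grik WT replicates 3, 4, 5 and 6, and 56.5, 45.7, 46.2 and 50.9 CPM in SST WT replicates 1, 2, 3 and 5. All Grik libraries lay below all others, and CamK and SST overlapped. It was 1.48-fold higher in CamK WT than in Grik WT (log2 0.56, SE 0.10, adjusted p 9.133e-05 in edgeR) and 1.58-fold lower in Grik WT than in SST WT (log2 -0.66, SE 0.10, adjusted p 5.824e-06). The same directions passed in the cKO libraries, at 0.47 and -0.38 (adjusted p 0.0015 and 0.0026 in edgeR).

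Hnrnph1, another relative of Hnrnpf, was highest in CamK WT. It had 263, 270, 246 and 214 CPM in CamK WT replicates 2, 3, 4 and 5 and 209, 194, 171 and 192 CPM in Grik WT replicates 3, 4, 5 and 6. These groups did not overlap, although CamK WT replicate 5 lay close to Grik WT replicate 3. The log2 fold change was 0.37 (SE 0.08, adjusted p 4.183e-04 in edgeR). SST WT had 189 to 227 CPM and differed from CamK WT by 0.28 (SE 0.08, adjusted p 0.0032) with overlapping libraries. Grik WT and SST WT overlapped and did not pass (log2 -0.09, SE 0.08, adjusted p 0.336 in edgeR). In the cKO libraries CamK was above Grik and SST without overlap, by 0.38 and 0.37 (adjusted p 9.070e-04 and 5.344e-04 in edgeR).

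Hnrnpdl, a relative of the AU-rich element binding gene Hnrnpd, was highest in CamK. Its levels were 159, 168, 212 and 181 CPM in CamK WT replicates 2, 3, 4 and 5, 154, 130, 130 and 121 CPM in Grik WT replicates 3, 4, 5 and 6, and 110, 136, 129 and 129 CPM in SST WT replicates 1, 2, 3 and 5. CamK was above both other populations without overlap. The log2 fold change was 0.43 against Grik WT (SE 0.10, adjusted p 0.0013 in edgeR) and 0.51 against SST WT (SE 0.10, adjusted p 1.033e-04). Neither passed with the non-neuronal covariate, at 0.28 (adjusted p 0.278) and 0.35 (adjusted p 0.159). In the cKO libraries both were 0.70, without overlap (adjusted p 1.308e-05 and 5.843e-06 in edgeR).

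Hnrnpm, a repressor that binds GU-rich RNA, had 133, 131, 112 and 114 CPM in CamK WT replicates 2, 3, 4 and 5 and 97.7, 76.0, 83.4 and 88.8 CPM in SST WT replicates 1, 2, 3 and 5. All CamK libraries were above all SST libraries, with a log2 difference of 0.50 (SE 0.09, adjusted p 4.724e-05 in edgeR). Hnrnpl, which binds CA repeats, fell in the order CamK, Grik and SST, at 177 ± 9.90, 150 ± 9.62 and 127 ± 4.76 CPM (SD, n = 4 each), and each step passed (log2 0.24 and 0.24, adjusted p 0.0026 and 0.0015 in edgeR). With the non-neuronal covariate the CamK and Grik step was 0.20 and did not pass (adjusted p 0.1815 in edgeR). Hnrnpul1 followed the same order at 99.3 ± 3.86, 87.6 ± 3.40 and 78.1 ± 5.22 CPM (log2 0.18 and 0.17, adjusted p 0.0241 and 0.0295 in edgeR). Its CamK and Grik step was 0.02 with the covariate (adjusted p 0.938 in edgeR), and was also lost with no filter (0.0537) and without CamK WT replicate 3 or 4 or Grik WT replicate 3, 5 or 6 (0.0569 to 0.0892). Its Grik and SST step was lost with no filter (0.0552), these groups fitted alone (0.0583), and without Grik WT replicate 4 or 5 or SST WT replicate 5 (0.0505 to 0.123). For Hnrnpl and Hnrnpul1 no 2 WT populations overlapped. Hnrnpa2b1, Hnrnpab, Hnrnpll and Hnrnpul2 were higher in both pyramidal populations than in SST WT, by 0.30 to 0.47 (log2), and did not pass between CamK WT and Grik WT. With the covariate the CamK and SST difference was 0.07 for Hnrnpll and 0.11 for Hnrnpul2, and neither passed (adjusted p 0.758 and 0.553 in edgeR). Hnrnpa3 was higher in CamK WT than in SST WT by 0.21, and Hnrnpa1 was lower by a log2 fold change of -0.19 (adjusted p 0.0148 and 0.0373 in edgeR), both with overlapping libraries. The Hnrnpa3 call was lost with the covariate (adjusted p 0.374 in edgeR) and without CamK WT replicate 2 (0.0607) or SST WT replicate 1 (0.0532). The Hnrnpa1 call was lost with the covariate (0.312), no filter (0.06735), these groups fitted alone (0.0901), and without CamK WT replicate 2, 3 or 5 or SST WT replicate 2 or 5 (0.0658 to 0.187). Hnrnpab shares 29.1% of its exon bases with Phykpl on the opposite strand and Hnrnpm 14.7% with March2 on its own strand, so both counts are uncertain.

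Mbnl1 and Mbnl2 differed between populations in opposite directions. Mbnl proteins promote adult splicing patterns and are sequestered in myotonic dystrophy, where Mbnl2 is the member tied to the brain. Mbnl2 had 356, 328, 350 and 321 CPM in CamK WT replicates 2, 3, 4 and 5, 387, 344, 318 and 302 CPM in Grik WT replicates 3, 4, 5 and 6, and 168, 164, 176 and 177 CPM in SST WT replicates 1, 2, 3 and 5. The pyramidal populations overlapped each other, and every pyramidal library was above every SST library. Mbnl2 was 1.98-fold higher in CamK WT (log2 0.99, SE 0.07, adjusted p 1.105e-11 in edgeR) and 1.98-fold higher in Grik WT (log2 0.98, SE 0.07, adjusted p 1.114e-11) than in SST WT. Between CamK WT and Grik WT it differed by 0.00, with a 95% interval of -0.14 to 0.15. In the cKO libraries the differences from SST were 1.01 and 0.95, again without overlap (adjusted p 2.974e-11 and 1.944e-11 in edgeR).

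Mbnl1 was higher in SST WT. It had 78.2, 74.3, 71.1 and 68.2 CPM in CamK WT replicates 2, 3, 4 and 5, 93.4, 78.8, 74.8 and 70.2 CPM in Grik WT replicates 3, 4, 5 and 6, and 96.7, 102, 99.2 and 101.5 CPM in SST WT replicates 1, 2, 3 and 5. All SST libraries lay above all pyramidal ones, with log2 fold changes of -0.45 for CamK (SE 0.09, adjusted p 9.665e-05 in edgeR) and -0.33 for Grik (SE 0.09, adjusted p 0.0023). In the cKO libraries the Grik and SST difference passed at -0.33 with overlapping libraries (adjusted p 0.0026 in edgeR), and that of CamK and SST did not pass. Per kilobase of exon, Mbnl2 was above Mbnl1 in each population, at 28.2 against 3.90 CPM per kilobase in CamK WT and 14.3 against 5.33 in SST WT.

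**Figure D2:**
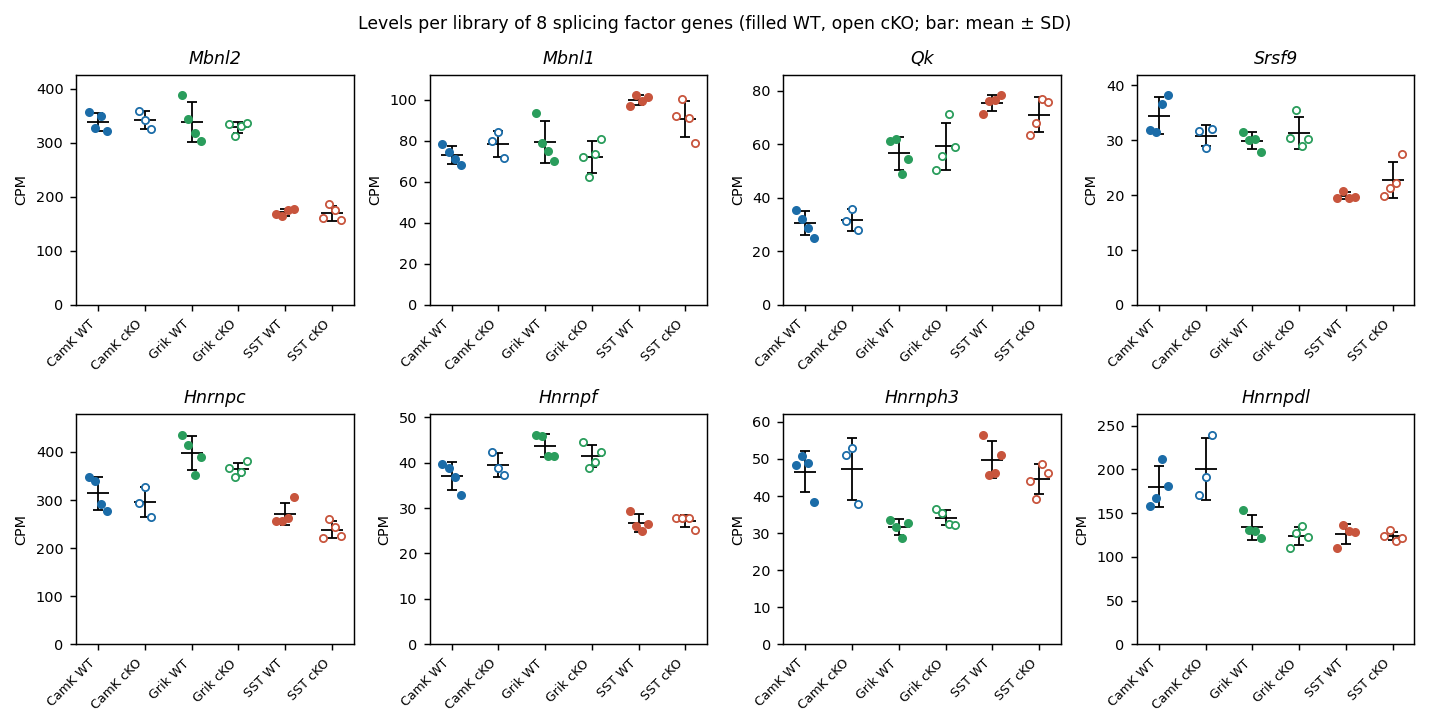
Level in CPM of 8 members in each of the 23 libraries (filled points WT, open points cKO, bars mean and SD). Mbnl2 and Srsf9 were higher in the pyramidal populations, Mbnl1 and Qk in SST, and Hnrnph3 was lowest in Grik.

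Qk was lowest in CamK and highest in SST. Quaking binds ACUAA-containing RNA, belongs to the STAR family with the Khdrbs proteins, and is known for its part in myelinating glia and astrocytes. CamK WT replicates 2, 3, 4 and 5 had 35.6, 32.0, 28.9 and 25.1 CPM. Grik WT replicates 3, 4, 5 and 6 had 61.3, 61.8, 49.0 and 54.3 CPM, and SST WT replicates 1, 2, 3 and 5 had 71.1, 76.1, 76.3 and 78.2 CPM. The WT populations did not overlap. Qk was 2.48-fold lower in CamK WT than in SST WT (log2 -1.31, SE 0.11, adjusted p 2.215e-10 in edgeR) and 1.86-fold lower than in Grik WT (log2 -0.90, SE 0.11, adjusted p 3.808e-07). Grik WT was 1.33-fold below SST WT (log2 -0.41, SE 0.11, adjusted p 0.0022 in edgeR).

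The libraries labelled cKO showed the same order of Qk. CamK cKO replicates 4, 5 and 6 had 31.4, 35.8 and 27.9 CPM, Grik cKO replicates 1 to 4 had 50.5, 55.5, 71.4 and 59.1 CPM, and SST cKO replicates 3, 4, 5 and 7 had 63.4, 67.8, 76.9 and 75.9 CPM. CamK lay below both other populations, while Grik and SST overlapped through Grik cKO replicate 3. The log2 differences were -0.90 for CamK minus Grik, -1.16 for CamK minus SST and -0.26 for Grik minus SST (adjusted p 1.654e-06, 1.142e-08 and 0.0412 in edgeR). The Grik and SST call was lost with the non-neuronal covariate (log2 -0.19, adjusted p 0.101), the replicate block (0.160), no filter (0.05745) or these groups fitted alone (0.0515), and without Grik cKO replicate 1, 2 or 4 or SST cKO replicate 5 or 7 (0.0892 to 0.196).

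The summed non-neuronal markers were lower in CamK WT, where Qk was lower, than in the other populations. Between Grik WT and SST WT their order depended on how they were combined. Grik WT had the higher marker sum, at 751 to 1005 CPM against 376 to 813 CPM in SST WT, and the lower Qk. The score used as a covariate, their mean log2 level, ran the other way. It was 0.05 to 0.71 in Grik WT and 0.22 to 0.96 in SST WT, with overlap. Of the 20 markers, 4 were higher and 4 lower in Grik WT than in SST WT, with a median log2 fold change of -0.04. With the score as a covariate, the Qk differences were -0.87 for CamK WT minus SST WT (adjusted p 2.751e-04 in edgeR) and -0.50 for CamK WT minus Grik WT (0.0272). For Grik WT minus SST WT the Qk difference was -0.37 with it (adjusted p 0.0019 in edgeR). The part of non-neuronal RNA in the Qk differences was not tested.

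**Figure D3:**
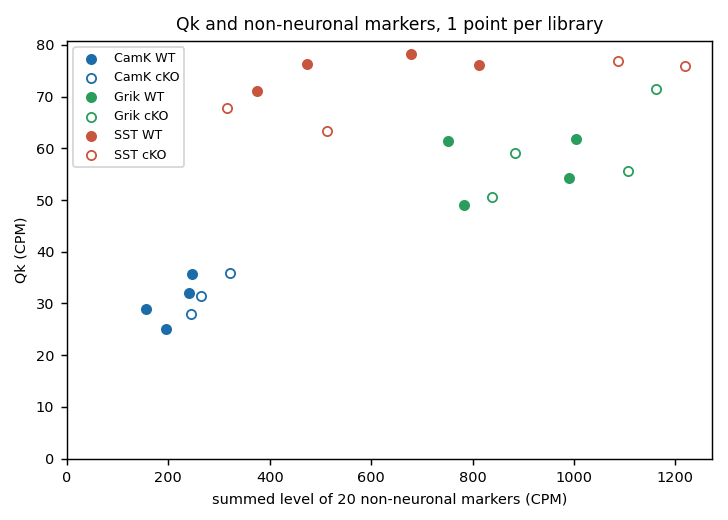
Level of Qk in CPM against the summed level of 20 non-neuronal markers in CPM, with 1 point per library (filled WT, open cKO). CamK libraries lay at 25.1 to 35.8 CPM of Qk and 156 to 321 CPM of the markers, Grik libraries at 49.0 to 71.4 CPM of Qk and 751 to 1162 CPM of the markers, and SST libraries had 63.4 to 78.2 CPM of Qk at 315 to 1220 CPM of the markers.

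Related genes were then set against each other within each library, where the ratio does not depend on how the library was scaled. Of 39 comparisons over 13 pairs, 14 had WT populations without overlap, and these had the smallest p that 4 against 4 libraries allow in a two-sided exact permutation test (0.0286). After Benjamini-Hochberg adjustment over the 39 comparisons this became 0.0796, so 0 passed. No comparison can go below 0.0286, so none could pass unless more of the 39 reached that floor together. The test therefore cannot decide whether a single pair differs, however far apart its libraries lie. How often other pairs of genes lie apart in this way was not computed. The mean ratio of Mbnl1 to Mbnl2 reads was 0.215, 0.234 and 0.584 in CamK, Grik and SST WT. Its libraries ranged from 0.203 to 0.227, from 0.229 to 0.241 and from 0.565 to 0.623, and in the cKO libraries from 0.220 to 0.246, 0.199 to 0.241 and 0.502 to 0.575. Both genotypes thus kept SST apart from the pyramidal populations in every library.

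The other pairs differed by less. The mean ratio of Srsf1 to Srsf9 was 3.57, 4.37 and 6.50 in CamK, Grik and SST WT, and SST did not overlap either population, nor did it in the cKO libraries. Hnrnpa1 to Hnrnpa2b1 stood at 0.435, 0.481 and 0.657, again with SST apart in both genotypes. The ratio of Hnrnph1 to Hnrnph2 separated all 3 populations, with CamK at 1.18 to 1.32, SST at 0.963 to 1.03 and Grik at 0.864 to 0.878. The cKO libraries did not keep all 3 apart, with SST at 0.877 to 1.07 around Grik at 0.892 to 0.947 and CamK above both at 1.08 to 1.24. Hnrnph1 and Hnrnph2 are closely alike in sequence, so their shares depend on how the authors assigned reads. CamK WT and SST WT were apart for Srrm3 to Srrm4 (mean 1.09 and 0.769), but CamK cKO at 0.895 to 1.02 overlapped SST cKO at 0.612 to 0.905. CamK and SST were apart in both genotypes for Hnrnpd to Hnrnpdl (WT means 1.04 and 1.41), as were CamK and Grik for Hnrnpl to Hnrnpll (2.47 and 1.90) and Hnrnpul1 to Hnrnpul2 (0.221 and 0.195).

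**Figure D4:**
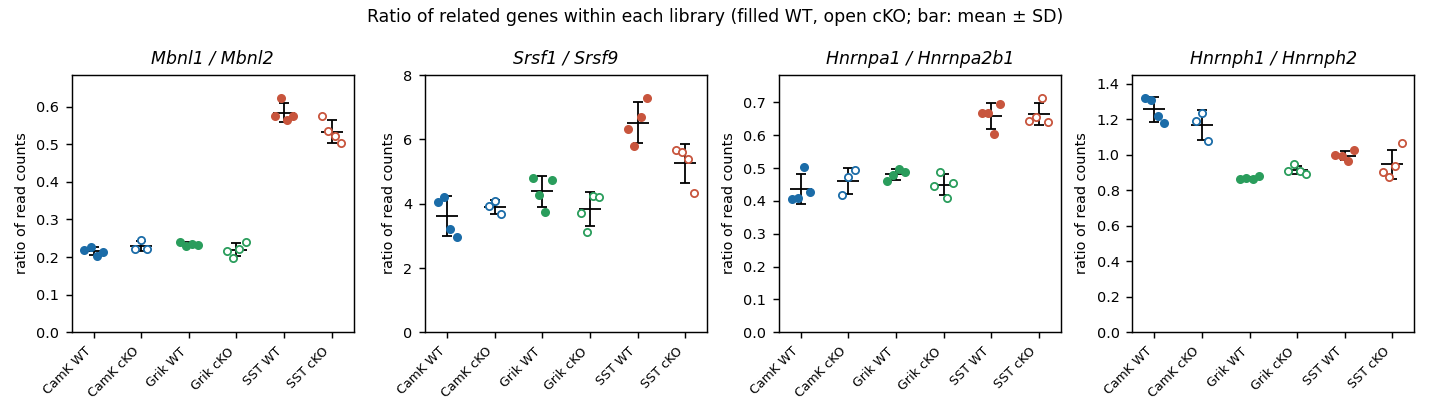
Ratio of read counts of related members in each library (filled WT, open cKO, bars mean and SD). SST WT stood apart from both pyramidal populations for Mbnl1 to Mbnl2, Srsf1 to Srsf9 and Hnrnpa1 to Hnrnpa2b1.

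The populations were compared again in the cKO libraries, which are other libraries than those of WT. Between CamK cKO and Grik cKO 13 members passed in edgeR, against 35.7% of all genes, with 10 higher (17.4% of all genes) and 3 lower (18.3%). CamK cKO and SST cKO differed in 19 members, against 56.4%, with 17 higher (26.9%) and 2 lower (29.4%). Grik cKO and SST cKO differed in 23, against 57.9%, with 13 higher (27.9%) and 10 lower (30.0%). Of the WT calls, 7 of 9, 17 of 21 and 14 of 16 passed in the same direction in the cKO libraries, and 0 passed in the opposite direction. These were 77.8, 81.0 and 87.5% of the WT calls and 53.8, 89.5 and 60.9% of the cKO calls. Over all genes the shares of the WT calls were 69.2, 81.5 and 88.2%, and those of the cKO calls 81.5, 86.8 and 87.3%. The members thus lay below all genes in their share of the cKO calls for CamK against Grik and for Grik against SST, a difference that was not tested.

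Some members, named after their values were seen, passed between Grik cKO and SST cKO and did not pass between Grik WT and SST WT. Srsf5, Srsf6, Srrm1, Srrm2, Hnrnpa1 and Hnrnpd were lower in Grik cKO, and Srsf7, Srsf10 and Srsf11 were higher. The test of the difference itself, between the genotype effects in Grik and in SST, passed for 0 of 40 members (lowest adjusted p 0.9999 in edgeR), so these calls are not shown to differ between genotypes. With the replicate block Srsf5 (log2 -0.37, adjusted p 0.0502 in edgeR), Srrm1, Srrm2, Hnrnpa1, Hnrnpd, Srsf7 and Srsf10 did not pass. Leaving out 1 library ended the calls of Srrm1 (Grik cKO replicate 1 or 2, SST cKO replicate 3, 5 or 7), Srrm2 (Grik 2, 3 or 4, SST 4), Hnrnpa1 (Grik 1, 3 or 4, SST 4, 5 or 7) and Hnrnpd (Grik 1, 2 or 4, SST 4). The same held for Srsf7 (Grik 4, SST 3 or 7) and Srsf11 (Grik 1 or 4, SST 3, 4 or 5), with adjusted p of 0.0528 to 0.205 in edgeR over these fits. With no filter on low counts Srrm1, Hnrnpa1 and Srsf11 did not pass (0.0565 to 0.0764), nor did Srrm1 and Hnrnpa1 with the non-neuronal covariate (0.0655 and 0.0522). Srsf6 kept its call between Grik cKO and SST cKO in each alternative run. Among them Srsf5 had the largest difference, a log2 value of -0.58 (SE 0.15, adjusted p 0.0024 in edgeR). It had 89.8, 113, 94.5 and 92.0 CPM in Grik cKO replicates 1, 2, 3 and 4 and 130, 153, 121 and 176 CPM in SST cKO replicates 3, 4, 5 and 7. Those groups did not overlap, whereas the WT groups did, at 106 to 142 CPM in Grik and 95.9 to 160 CPM in SST. Srsf5 was also the most variable member within groups, with an SD of 0.23 on the log2 scale, above that of 85.1% of genes. The median SD was 0.122 over the members, 0.148 over all genes and 0.118 over genes at the members' levels.

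In the comparison of genotypes, which was the study's own, no member passed the test. In CamK, Grik and SST 0 of 40 members passed an edgeR adjusted p of 0.05 between cKO and WT, against 0.0106% of all genes (2 genes) in each population. DESeq2 called 0 members in each, against 0.0744, 0.0744 and 0.0584% of all genes, and limma-voom called 0, against 0.0319, 0.207 and 0%. At an unadjusted p under 0.05 edgeR gave 2, 5 and 2 members, against 7.05, 4.88 and 5.85% of all genes. The median absolute log2 fold change was 0.06, 0.07 and 0.09, against 0.13, 0.11 and 0.12 over all genes. The 95% intervals of the members ran from -0.69 to 0.40 in CamK, from -0.67 to 0.33 in Grik and from -0.38 to 0.53 in SST, so none reached a 2-fold change.

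The 2 members of lowest p in each population were SR or hnRNP genes, families that hold 11 and 20 of the 40 tested members. In CamK, Srsf5 had 122, 97.96 and 130 CPM in cKO replicates 4, 5 and 6 and 117, 177, 149 and 153 CPM in WT replicates 2, 3, 4 and 5. The groups overlapped, with a log2 difference of -0.35 (SE 0.16, adjusted p 0.688 in edgeR). Srsf12 in CamK had 23.4, 19.2 and 25.1 CPM in the same cKO libraries and 23.4, 23.3, 27.8 and 28.1 CPM in WT, also overlapping, with a log2 difference of -0.18 (SE 0.09, adjusted p 0.690 in edgeR). It was -0.08 without CamK cKO replicate 5, -0.10 in limma-voom and -0.12 with the non-neuronal covariate.

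In Grik, Srsf6 had 60.7, 54.3, 57.7 and 60.1 CPM in cKO replicates 1, 2, 3 and 4 and 78.1, 74.6, 57.3 and 68.9 CPM in WT replicates 3, 4, 5 and 6. WT replicate 5 was within the cKO range, and the log2 fold change was -0.26 (SE 0.10, adjusted p 0.946 in edgeR). Hnrnpd in Grik had 133, 137, 145 and 142 CPM in cKO and 185, 165, 142 and 157 CPM in WT, overlapping through the same WT library (log2 -0.22, SE 0.09, adjusted p 0.957 in edgeR), and the value was -0.14 with the replicate number as a block. The other 3 members with an unadjusted p under 0.05 in Grik, named after their values were seen, were Srsf5, Hnrnpll and Hnrnpa1, with log2 fold changes of -0.35, -0.21 and -0.16.

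In SST, Hnrnpc had 222, 261, 244 and 226 CPM in cKO replicates 3, 4, 5 and 7 and 257, 257, 264 and 306 CPM in WT replicates 1, 2, 3 and 5. They overlapped through cKO replicate 4, and the log2 fold change was -0.19 (SE 0.08, adjusted p 0.833 in edgeR) and -0.12 without WT replicate 5. Srsf9 in SST had 19.9, 21.3, 22.2 and 27.4 CPM in cKO and 19.4, 20.8, 19.5 and 19.7 CPM in WT, overlapping, with a difference of 0.19 (SE 0.09, adjusted p 0.833 in edgeR). It rested on cKO replicate 7, without which it was 0.09, and it was 0.08 with the replicate number as a block. Qk differed by 0.06, 0.06 and -0.09 in CamK, Grik and SST and Mbnl2 by 0.01, -0.04 and -0.01, each with overlapping groups. Of the 40 members, 25 had a log2 fold change above 0 in CamK, 11 in Grik and 12 in SST, against 49.5, 50.9 and 56% of all genes. Of the 20 non-neuronal markers 18, 18 and 17 were above 0 in cKO against WT, with medians of 0.58, 0.20 and 0.39 and 0 called in edgeR, and their part in these counts was not tested.

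**Figure D5:**
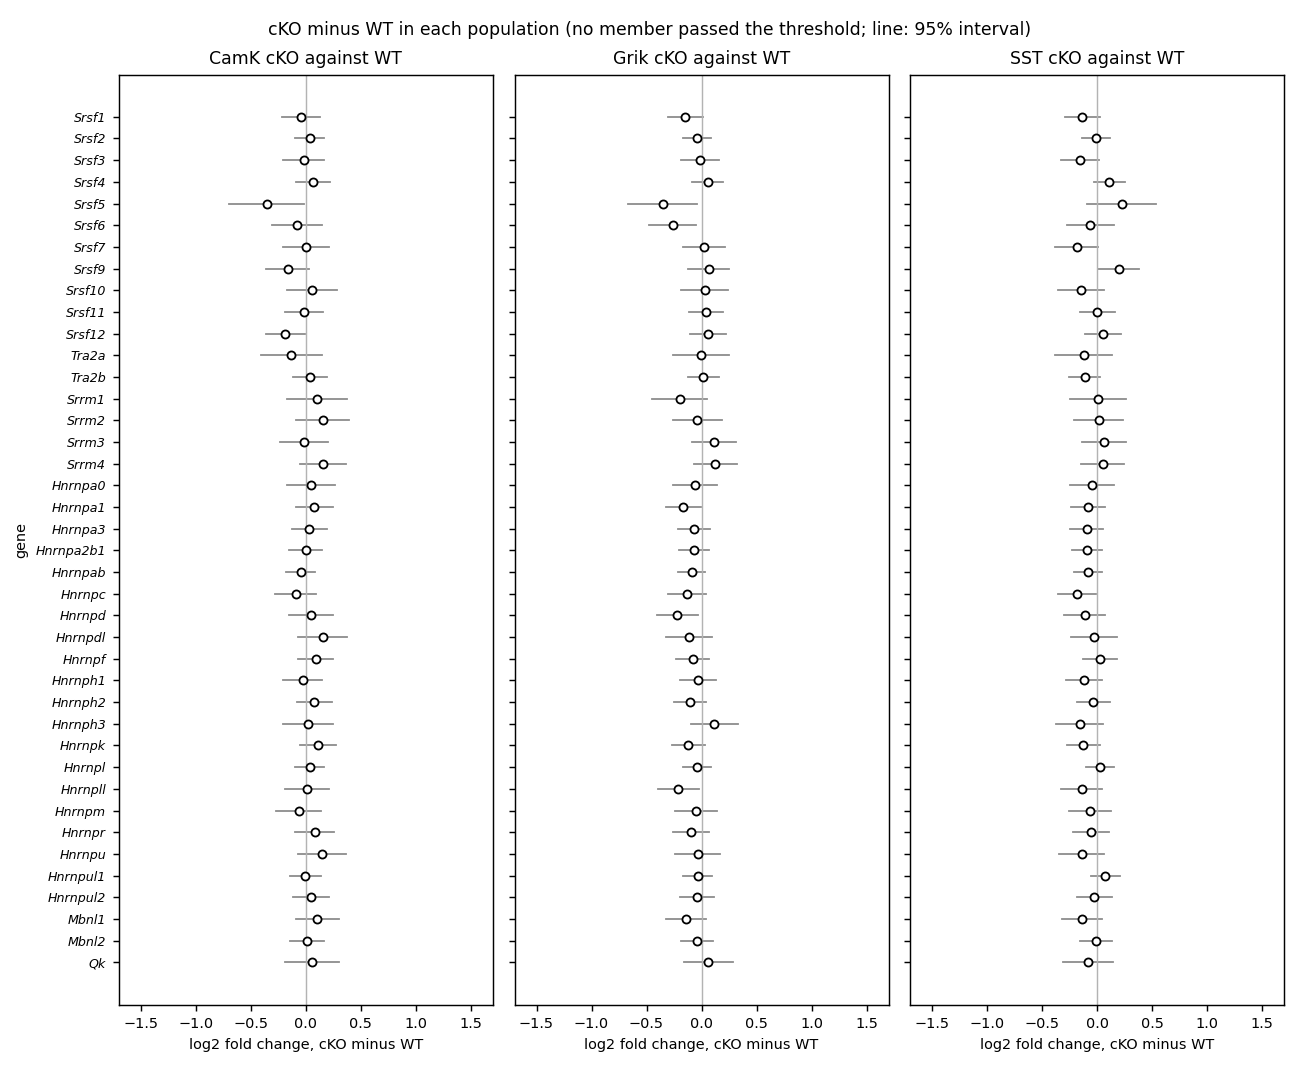
Log2 fold change of the 40 tested members, cKO minus WT, in each population, with 95% intervals. No point is filled, since 0 members passed an edgeR adjusted p of 0.05, and the outermost bounds, -0.69 and 0.53, belong to Srsf5.

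The difference of the genotype effects was tested for each pair of populations. Between CamK and Grik 0 members passed in edgeR (0.00531% of all genes), DESeq2 (0.0106%) and limma-voom (0.00531%), with 2 members at an unadjusted p under 0.05 (6.50%). For CamK and SST 0 passed in edgeR (0%), DESeq2 (0.0531%) and limma-voom (0.00531%), with 3 at an unadjusted p under 0.05 (7.85%). Grik and SST gave 0 in edgeR (0.0106%), DESeq2 (0.0213%) and limma-voom (0.0106%), with 1 at an unadjusted p under 0.05 (3.86%). The lowest p was that of Srsf9 for CamK minus SST, a difference of -0.36 (SE 0.13, adjusted p 0.597 in edgeR), and Srsf5 differed by -0.57 for CamK minus SST and for Grik minus SST (SE 0.22 and 0.21, adjusted p 0.604 and 0.9999). The comparisons share libraries, so these values are not independent.

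Genes that act on or with the members were looked at as 3 lists, to be read against the 42.0, 60.1 and 57.3% of all genes that passed between CamK and Grik, CamK and SST, and Grik and SST WT. Of 9 genes for the kinases that phosphorylate SR proteins and for their nuclear importer, 2 were higher and 2 lower in CamK WT than in Grik WT, 1 higher and 4 lower in CamK WT than in SST WT, and 3 higher and 4 lower in Grik WT than in SST WT. Clk1, a kinase gene that is itself regulated by intron retention, averaged 13.4 ± 3.32, 17.5 ± 4.26 and 28.4 ± 5.72 CPM in CamK, Grik and SST WT (SD, n = 4 each). It was lower in CamK WT than in SST WT by a log2 fold change of -1.09 and in Grik WT by -0.70 (SE 0.22 and 0.22, adjusted p 2.193e-04 and 0.0094 in edgeR). Clk2 went the other way, at 22.5 ± 1.19, 18.8 ± 1.76 and 15.7 ± 1.92 CPM, and was higher in both pyramidal populations than in SST WT (log2 0.52 and 0.26, adjusted p 6.552e-06 and 0.0094 in edgeR).

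Of 18 genes for core snRNP proteins and splice site recognition, 4 were higher and 1 lower in CamK WT than in Grik WT, 11 higher and 2 lower in CamK WT than in SST WT, and 8 higher and 1 lower in Grik WT than in SST WT. Over all genes 20.9, 29.5 and 28.1% were higher and 21.1, 30.5 and 29.2% lower in these comparisons. Snrpb, a core Sm protein gene, averaged 89.7 ± 2.57, 86.6 ± 7.22 and 50.6 ± 3.95 CPM in CamK, Grik and SST WT, with log2 fold changes of 0.82 and 0.77 against SST WT (adjusted p 2.538e-09 and 7.361e-09 in edgeR). The list's median log2 fold change was 0.10, 0.29 and 0.13 in the 3 comparisons, against 0.01, -0.02 and -0.03 over all genes.

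Of 8 genes for nonsense-mediated decay, the pathway that removes the non-productive SR and hnRNP transcripts, 1 was higher and 0 lower in CamK WT than in Grik WT, 3 higher and 1 lower in CamK WT than in SST WT, and 2 higher and 1 lower in Grik WT than in SST WT, against 42.0, 60.1 and 57.3% of all genes called in either direction. The paralogs Upf3a and Upf3b moved in opposite ways. Upf3a averaged 47.2 ± 4.74, 39.3 ± 1.45 and 25.4 ± 1.99 CPM in CamK, Grik and SST WT, and Upf3b 22.98 ± 3.08, 22.5 ± 1.73 and 38.1 ± 3.23 CPM (SD, n = 4 each). Against SST WT the log2 fold changes of Upf3a were 0.89 and 0.63 (adjusted p 2.424e-10 and 1.032e-07 in edgeR) and those of Upf3b -0.73 and -0.76 (adjusted p 8.677e-08 and 4.230e-08). In the comparison of cKO with WT, 0 genes of the 3 lists passed in any population. The Khdrbs genes, taken with the targeted gene as a check of the labels, did have calls. Khdrbs2 was higher in cKO than in WT in CamK (40.2 ± 3.30 against 14.0 ± 0.70 CPM) and in Grik (21.1 ± 1.02 against 4.70 ± 0.65 CPM), with edgeR adjusted p of 3.022e-07 and 1.113e-10. Khdrbs1 was also higher in both (log2 0.59 and 0.56, adjusted p 0.0111 and 0.0091 in edgeR). Khdrbs3 was lower in SST cKO (log2 -0.47, adjusted p 0.0309) and passed in neither CamK nor Grik (adjusted p 0.114 and 0.499).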

How the data were processed

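The authors deposited 1 table of raw read counts, with a row for each Ensembl gene and a column for each of 23 libraries. Trimmomatic, STAR and the build GRCm38 are named per the submitters' processing notes, and 4 summary rows have the form of STAR's read counts. Versions, annotation, strand setting, isolation and batches are not given in the labels. The summary rows (12.4 to 18.4% of reads) were left out. Symbols came from GENCODE M21 (45143 of 45706 IDs matched). The members and lists were chosen with earlier results of these data known.

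Counts were tested with edgeR 4.0.16 (R 4.3.3) over 18823 genes that passed filterByExpr. Libraries were scaled by TMM and fitted together over 6 groups with glmQLFit (robust) and glmQLFTest (17 residual degrees of freedom), with Benjamini-Hochberg adjustment over all genes and a threshold of 0.05. CPM values are TMM-scaled counts per 1e+06 gene reads. At 87612006 or more gene reads per library, the tested members are limited by the spread between libraries rather than by counting. Ratios of paralogs used counts plus 0.5. The functions were tested on simulated data.

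Values in each library of the compared groups are given for Qk (all groups), for up to 4 called members higher and up to 4 lower per WT comparison by fold, without overlap between groups and with a mean of at least 1 CPM, and for the 2 members of lowest p in each comparison of genotypes. Alternatives were RLE scaling, no filter, DESeq2 1.42.0, limma-voom (limma 3.58.1), a fit of the compared groups alone, blocking on the replicate number, adjusting for the mean log2 level of the non-neuronal markers, a larger pseudocount in the ratios, and leaving out each replicate. CamK WT and SST WT shared 3 replicate numbers, whose deviations from the group means correlated at 0.101 to 0.108. By the rule used (every pair over 0.1) they counted as possible pairs. These correlations were weak, and in 1 of the 3 pairs each library correlated best with the other. The labels name no pairing, so matched samples are not shown. With the number as a block 21 members passed there, as without it, against 59.2% of all genes with the block. The other groups' numbers did not meet the rule.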

Additional observations from a re-analysis of the deposited data

Results flagged for a closer look

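Among the 16 members named by library, 3 of the 80 sets of 4 libraries held a value far from the others by Dixon's test, where chance gives about 4 (1 in 20). Hnrnpc stood at 306 CPM in SST WT replicate 5, against 257 to 264 CPM in the other SST WT libraries. That library was also the highest of SST WT in the sums of the families. Its hnRNP genes summed to 4124 CPM against 3595 to 3735 CPM, and its SR genes to 930 CPM against 820 to 887 CPM. Hnrnpf stood at 25.3 CPM in SST cKO replicate 7, against 27.8 to 27.9 CPM in the others. Srsf9 stood at 20.8 CPM in SST WT replicate 2, against 19.4 to 19.7 CPM.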

How the results depend on the processing

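Over the 40 members, the 12 comparisons and all alternatives there were 7960 values, of which 7753 kept their side of the threshold, 150 lost a call, 57 gained one and 0 calls changed sign. Calls were lost for 24 members and gained for 21. Of these, 403 values belong to the members named by the rule in the comparison that named them, where 9 lost a call (Hnrnpdl, Srrm3, Hnrnpc and Tra2b), 0 gained one and 0 changed sign. With the non-neuronal score as a covariate, the members that passed were 4 between CamK WT and Grik WT, 12 between CamK WT and SST WT, 8 between CamK cKO and Grik cKO and 12 between CamK cKO and SST cKO, against 21.7, 39.1, 22.7 and 38.5% of all genes; 5, 9, 5 and 7 calls were lost and 0 gained. Between Grik and SST the covariate gave 17 in WT (0 lost, 1 gained, 57.8% of all genes) and 22 in cKO (3 lost, 2 gained, 57.6%). The score differs between the populations, and that of every CamK library lay below that of every Grik and SST library. In the CamK comparisons score and population therefore cannot be told apart, and the cause was not tested. Leaving out each replicate gave 7 to 10, 18 to 21 and 14 to 18 members in the WT comparisons, 9 to 13, 17 to 21 and 16 to 21 in the cKO libraries, and 0 between genotypes and in their differences. The shares of all genes were then 37.96 to 41.4, 56.9 to 58.6 and 53.8 to 55.9% in WT and 28.9 to 32.8, 49.5 to 56.0 and 54.6 to 57.3% in cKO. With the replicate number as a block, 10, 21 and 19 members passed in the WT comparisons, 10, 18 and 16 in the cKO libraries and 0 elsewhere. The shares of all genes were 41.8, 59.2, 53.5, 30.8, 51.8 and 53.6% in the first 6. A shared number is not shown to mean matched samples in any comparison. Correlations were 0.101 to 0.108 over 3 pairs between CamK WT and SST WT. They were -0.04 to 0.05 over 3 pairs between CamK WT and Grik WT, with at most 2 pairs elsewhere. At these depths counting error does not limit the 40 tested members, while Mbnl3 was too low to compare.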
